A study of Mus musculus with 15 samples.

Results

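TGF-β and BMP signalling was followed through 10 listed genes, which were matched by symbol to the 2 deposited expression tables. They encode the ligands *Tgfb1*, *Tgfb2*, *Tgfb3*, *Bmp4* and *Bmp7*, the receptors *Tgfbr1* and *Tgfbr2*, the signal transducer *Smad3*, its inhibitor *Smad7* and the target gene *Id1*. Of these, 9 were among the 11677 genes of the culture table and 8 among the 11299 genes of the spheroid region table. *Bmp7* was in neither table and *Bmp4* was not in the region table, and the tables hold only genes that passed the authors' filter on low CPM (reads scaled to the size of the library). Thus, 8 of the 10 genes could be compared in both.

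All samples came from 21EM15, an immortalized mouse lens epithelial cell line, labelled WT and grown in medium with serum. The 4 2D samples were dishes at 80% confluence, and each of the 4 3D samples pooled 60 spheroids, seeded with 10000 cells per well and grown for 10 days on a coating that cells do not attach to. The 4 Internal and 3 External samples were cut by laser from 10 µm frozen sections, with 120 spheroids in each replicate, and their RNA was purified with another kit than that of the cultures. Per the study, a further External sample was removed because it differed from the others in expression, so the spread of the External group, on which every region p-value rests, is that of a group chosen on its values. The data therefore describe a single line, samples that pool many spheroids, and 2 tables whose levels cannot be set against each other. Per the study's methods each replicate had its own dish or its own pool of spheroids, but whether these were started separately is not given in the sources used here, so the p-values measure the spread between dishes or pools of this line.

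TGF-β ligands are secreted in a latent form that is stored in the extracellular matrix and has to be released before it can act. Active ligand joins TGFBR2 with TGFBR1, which phosphorylates SMAD2 and SMAD3, whereas BMPs act through other receptors on SMAD1, SMAD5 and SMAD9 and induce the *Id* genes, and SMAD7 and SMAD6 are induced as feedback inhibitors. In the lens, TGF-β drives epithelial cells towards a myofibroblast-like state, as in posterior capsule opacification and anterior subcapsular cataract, and BMPs take part in lens induction and fibre differentiation.

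The libraries held between 7305053 and 9362587 reads in the cultures and between 4044230 and 11702504 in the regions, and a floor of 3 reads stood for 0.248 to 0.802 CPM. Of 8 genes listed as lens epithelium markers, 6 were detected in both tables (*Pax6*, *Six3*, *Cryab*, *Maf*, *Prox1* and *Meis1*), without *Foxe3* and *Cdh1*. The study counts *Maf*, *Meis1* and *Prox1* among genes expressed in fibre cells and αB-crystallin (*Cryab*) among major fibre components. The 6 genes are therefore not specific to epithelium. Of 11 markers of lens fibres, 0 were in the culture table and 2 in the region table, where they summed to 0 to 3.92 CPM in External and 6.47 to 15.1 CPM in Internal. None of 3 endothelial markers was in either table and the 1 detected blood marker of 4 reached at most 6.31 CPM, with *Ptprc* and the haemoglobin genes absent.

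The sequences upstream of *Tgfb2* and *Tgfb1* are shown because both genes were higher in 3D, as reported next, while their upstream sequences differ. Promoter windows were available from RefSeq (GRCm38.p6) for 6 of the 10 genes (*Bmp4*, *Smad3*, *Tgfb1*, *Tgfb2*, *Tgfbr1* with 2 start sites, and *Tgfbr2*). The 250 bases before the start site are chr1:186705990-186706239 (minus strand) for *Tgfb2* and chr7:25686752-25687001 (plus strand) for *Tgfb1*, both 5′ to 3′. Capitals mark CAGAC, the core of the SMAD3 and SMAD4 binding box (the SMAD motif below), and TATAAA, the core promoter motif that binds TBP (the TBP motif), which was added after the sequences had been seen.
Tgfb2: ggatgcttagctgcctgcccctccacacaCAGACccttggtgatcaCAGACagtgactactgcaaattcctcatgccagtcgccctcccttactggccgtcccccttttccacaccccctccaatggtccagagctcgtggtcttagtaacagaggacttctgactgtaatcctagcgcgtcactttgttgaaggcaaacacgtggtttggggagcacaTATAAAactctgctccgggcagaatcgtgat
Tgfb1: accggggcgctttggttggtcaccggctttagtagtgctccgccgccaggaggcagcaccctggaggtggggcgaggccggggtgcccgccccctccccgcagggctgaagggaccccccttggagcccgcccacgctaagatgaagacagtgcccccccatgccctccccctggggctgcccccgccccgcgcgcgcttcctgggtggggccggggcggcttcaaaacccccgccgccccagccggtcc
Searched on both strands of 300 base windows (250 bases before to 50 after the start site), the SMAD motif matched at -221 and -204 and the TBP motif at -31 of the *Tgfb2* start site, and neither matched in the *Tgfb1* window. Over all 32851 mouse promoter windows, 49.6% held the SMAD motif and 13.6% the TBP motif. The SMAD motif was also in 1 of the 2 *Tgfbr1* windows (at -203) and in that of *Tgfbr2* (at -160), so in 3 of the 7 windows. GGCGCC, a GC-rich element described in BMP target genes, was in 1 of the 7 windows (the other of *Tgfbr1*, at -233) and in 11.9% of all windows. These matches describe the letters and not binding.

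The first comparison asked how 3D growth changed the pathway. The 3 TGF-β ligand genes rose in 3D (adjusted p under 0.05 with limma and Benjamini-Hochberg adjustment over all genes) and no member fell, while 9.74% of all genes in the table rose and 9.25% fell. *Tgfb2* increased most, 4.21-fold, and *Tgfb1* and *Tgfb3* increased 2.88-fold and 2.75-fold. No change was called for the receptors, for *Smad3* and *Smad7* or for *Id1*, and *Bmp4* was lower in 3D without passing the test. With a log2 fold change over 1 required as well, 3 of the 9 members rose and 0 fell, against 5.52% and 2.86% of all genes. The median log2 fold change was 0.21 over the 9 members and -0.03 over all genes. Bulk samples cannot tell a smaller number of expressing cells from less RNA per cell.

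*Tgfb2* (ENSMUSG00000039239, chromosome 1, 186622792 to 186705989 on GRCm38) encodes the isoform most often tied to lens pathology. Its levels in 2D were 33.1, 40.1, 31.3 and 32.7 CPM in replicates 1 to 4, against 122, 144, 195 and 127 CPM in 3D. All 3D samples were thus far above all 2D samples, with 959 to 1502 reads against 267 to 316. The log2 fold change was 2.07 (SE 0.17, n = 4 per group, limma adjusted p = 0.000189), with a 95% interval from 1.70 to 2.45.

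*Tgfb3* (ENSMUSG00000021253, chromosome 12, 86056745 to 86079041) encodes another ligand for the same receptors. It had 18.4, 14.1, 15.7 and 22.6 CPM in 2D and 44.2, 40.9, 53.0 and 57.1 CPM in 3D. The groups did not overlap, and the lowest 3D sample was well above the highest 2D sample. Its log2 fold change was 1.46 (SE 0.19, n = 4 per group, limma adjusted p = 0.00132).

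*Tgfb1* (ENSMUSG00000002603, chromosome 7, 25687002 to 25705077) is the ligand that most cell types make. It had 10.5, 16.8, 5.74 and 11.8 CPM in 2D and 18.1, 33.6, 35.7 and 40.1 CPM in 3D. The 2D replicate 2 and the 3D replicate 1 nearly met, at 123 and 142 reads, and the other 3D samples stood apart. The log2 fold change was 1.53 (SE 0.34, n = 4 per group, limma adjusted p = 0.0129), which does not pass an adjusted p of 0.01. In total, 3 of 9 members had groups that did not overlap and were higher in 3D, and 1 (*Bmp4*) had such groups and was lower, against 12.0% of all genes in each direction.

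*Bmp4* (ENSMUSG00000021835, chromosome 14, 46383520 to 46390669) encodes a BMP needed for lens formation in the embryo. It had few reads, with 36, 27, 38 and 43 reads in 2D and 1, 9, 20 and 24 reads in 3D. Every 3D sample was below every 2D sample, but the 3D samples were widely spread. The log2 fold change was -1.57 (SE 0.61, n = 4 per group), with an unadjusted p = 0.0277 and a limma adjusted p = 0.101. Without the 3D replicate 1, which held a single *Bmp4* read, the log2 fold change was -0.90.

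The receptor genes did not pass the test. *Tgfbr1* (ENSMUSG00000007613, chromosome 4, 47353222 to 47414931), the signalling subunit, ranged from 12.4 to 22.4 CPM in 2D and from 18.3 to 25.4 CPM in 3D. *Tgfbr2* (ENSMUSG00000032440, chromosome 9, 116084293 to 116175360), which binds the ligand, ranged from 17.3 to 33.5 CPM in 2D and from 17.0 to 25.8 CPM in 3D. Both pairs of groups overlapped. For these genes, the 95% interval of the log2 fold change ran from -0.20 to 0.77 for *Tgfbr1* and from -0.67 to 0.35 for *Tgfbr2*, so that a change as large as that of *Tgfb2* lies outside both.

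Inside the cell, *Smad3* (ENSMUSG00000032402, chromosome 9, 63646767 to 63757994) had 54.7, 71.2, 90.0 and 59.0 CPM in 2D and 51.2, 63.5, 77.5 and 73.7 CPM in 3D, with overlapping groups and a log2 fold change of -0.04 (SE 0.19). *Smad7* (ENSMUSG00000025880), the feedback inhibitor, had 12.3, 13.7, 15.0 and 35.9 CPM in 2D and 18.8, 13.8, 19.0 and 10.4 CPM in 3D. The 2D replicate 4 was well above the other 7 culture samples. The log2 fold change of *Smad7* was -0.20 (SE 0.34, limma adjusted p = 0.716) with all samples and 0.15 without the 2D replicate 4, and neither passed the test.

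*Id1* (ENSMUSG00000042745, chromosome 2, 152736251 to 152737410), an inhibitor of bHLH transcription factors and a direct BMP target, had 91.5, 90.9, 159 and 340 CPM in 2D and 204, 147, 164 and 165 CPM in 3D. The 3D samples were close together and fell inside the range of the 2D samples, of which replicate 4 was again the highest. The log2 fold change was 0.21 (SE 0.36, limma adjusted p = 0.712), and 0.62 without the 2D replicate 4 (limma adjusted p = 0.0873).

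**Figure D1:**
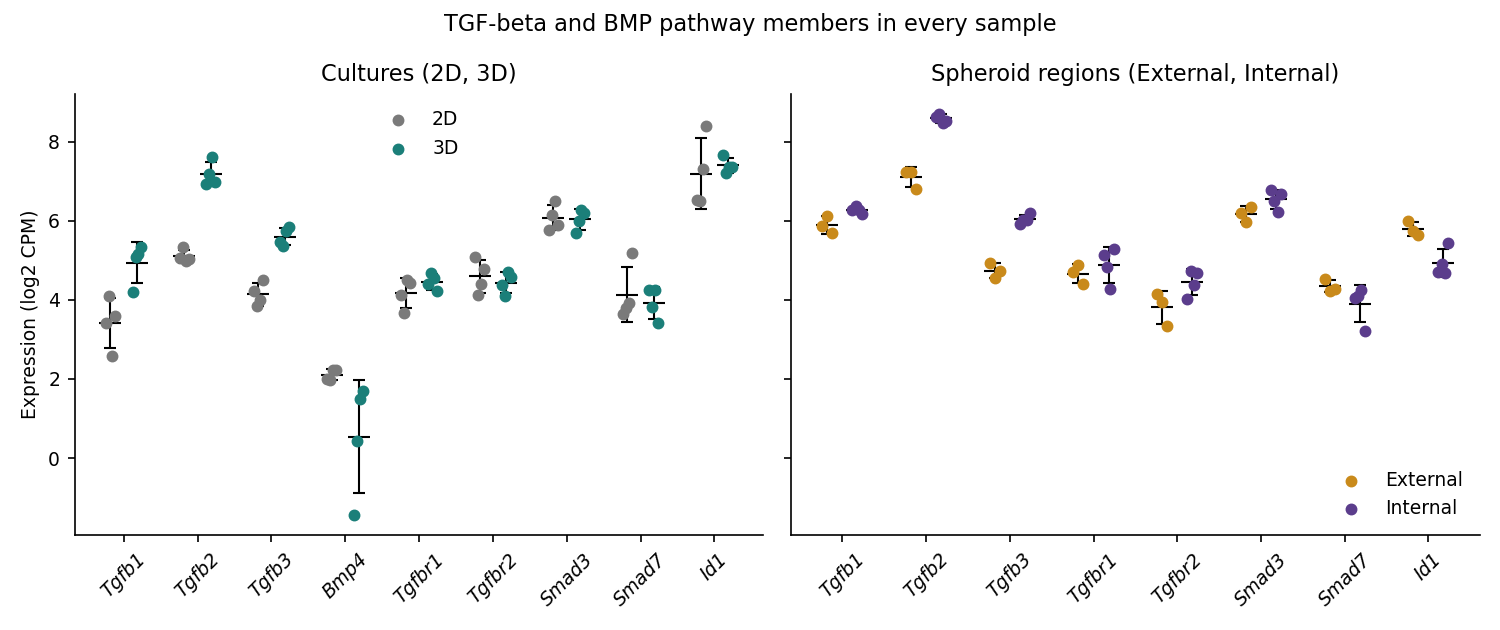
Expression of each member in log2 CPM (vertical axis) by gene, with 1 point per sample and the mean and SD of each group as black bars, for the cultures (left) and the spheroid regions (right), which were scaled separately. *Tgfb2* and *Tgfb3* are higher in every 3D than in every 2D sample and in every Internal than in every External sample, while the groups of *Smad3*, *Smad7*, *Tgfbr1* and *Tgfbr2* overlap in both tables.

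The second comparison asked how the members differed between the inside and the outside of the spheroids. *Tgfb2* and *Tgfb3* rose in Internal, by 2.81-fold and 2.46-fold, and *Id1* fell, to 0.549 of its External level. Over all genes, 9.58% rose and 12.1% fell. With a log2 fold change over 1 required as well, 2 of the 8 rose and 0 fell, against 4.77% and 5.65% of all genes. The other 5 members in the table did not pass the test, and the median log2 fold change was 0.37 over the 8 members and 0.04 over all genes.

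*Tgfb2* had 398, 420, 359 and 368 CPM in Internal replicates 1 to 4 and 152, 151 and 112 CPM in External replicates 1 to 3. The Internal samples were tightly grouped and none came near the highest External sample. Its log2 fold change was 1.49 (SE 0.15, n = 4 and 3, limma adjusted p = 1.27e-07).

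*Tgfb3* had 60.6, 64.4, 64.3 and 73.4 CPM in Internal and 30.5, 23.3 and 26.2 CPM in External. The groups were again apart, with a log2 fold change of 1.30 (SE 0.21, n = 4 and 3, limma adjusted p = 6.92e-05). *Tgfb1* had 77.2, 82.2, 76.5 and 72.3 CPM in Internal and 58.6, 69.4 and 51.1 CPM in External. Its groups did not overlap either, as in 13.5% of all genes in this direction, but the log2 fold change of 0.38 (SE 0.18, 95% interval from -0.00094 to 0.75) did not pass (limma adjusted p = 0.150).

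*Id1* was lower inside, with 25.7, 29.8, 25.2 and 43.2 CPM in Internal against 63.1, 53.5 and 50.0 CPM in External. The Internal replicate 4 was the nearest to the External samples without reaching them, and 15.4% of all genes had groups apart in this direction. This gave a log2 fold change of -0.87 (SE 0.24, n = 4 and 3, limma adjusted p = 0.00993). The call was lost without the External replicate 1 (log2 fold change -0.77, adjusted p = 0.0519), without both samples numbered 2 (adjusted p = 0.0669) and without a variance trend (adjusted p = 0.0517).

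For the receptors, *Tgfbr2* ranged from 15.9 to 26.3 CPM in Internal and from 9.89 to 17.5 CPM in External, and *Tgfbr1* from 19.0 to 38.9 and from 20.9 to 29.2 CPM. *Smad3* ranged from 74.2 to 110 CPM in Internal and from 62.0 to 82.1 CPM in External, and *Smad7* from 9.01 to 18.8 and from 18.5 to 22.7 CPM. All 4 pairs of groups overlapped. Their log2 fold changes were 0.64 (*Tgfbr2*, 95% interval from -0.02 to 1.30), 0.22 (*Tgfbr1*), 0.37 (*Smad3*, 95% interval from -0.02 to 0.75) and -0.44 (*Smad7*), with limma adjusted p between 0.160 and 0.624.

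**Figure D2:**
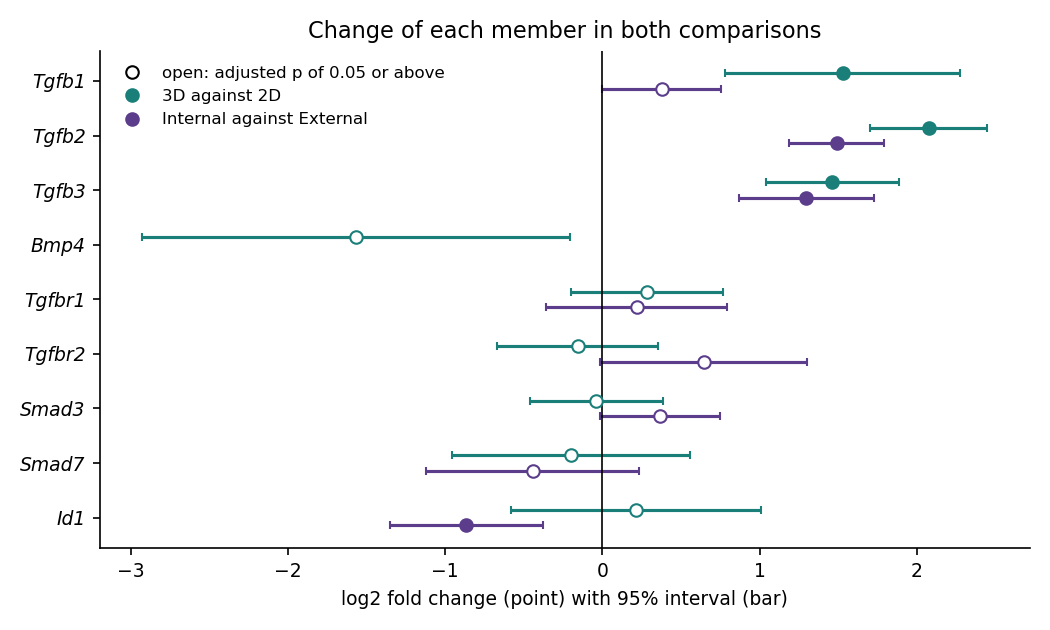
Log2 fold change (horizontal axis) of each member in 3D against 2D and in Internal against External, with its 95% interval from limma, and filled points for an adjusted p under 0.05. The intervals of *Tgfb2* and *Tgfb3* lie to the right of 0 in both comparisons, that of *Id1* lies to the left in the regions and spans 0 in the cultures, and those of the receptors and of *Smad3* and *Smad7* include 0.

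The ligand genes were also summed, since their products share receptors. QuantSeq libraries draw a read from the 3′ end of a transcript whatever its length, but genes can still be captured with unequal efficiency, so shares are compared between groups and not between genes. The 3 TGF-β ligand genes summed to 62.0, 71.0, 52.7 and 67.0 CPM in 2D and 185, 219, 284 and 224 CPM in 3D. The summed level was therefore higher in 4 of 4 3D samples than in any 2D sample (two-sided exact permutation test over samples, p = 0.0286, 0.0914 after adjustment over 8 such tests). In the regions it was 241, 244 and 190 CPM in External and 536, 567, 500 and 514 CPM in Internal, again without overlap (exact p = 0.0571, the smallest that 4 against 3 samples can give).

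The shares of the ligand genes are given as values, since none passed after adjustment over the 8 tests (adjusted p of 0.0914 or more). *Tgfb2* made up 59.2 to 63.0% of the ligand reads in External and 71.6 to 74.3% in Internal, whereas *Tgfb1* made up 24.3 to 28.5% in External and 14.1 to 15.3% in Internal. Neither pair of ranges overlapped (exact p = 0.0571 each). *Tgfb3* made up 9.55 to 13.8% in External and 11.3 to 14.3% in Internal, and these ranges overlapped (exact p = 0.743). In the cultures, the share of *Tgfb2* was 48.8 to 59.3% in 2D and 56.6 to 68.7% in 3D, and these ranges overlapped (exact p = 0.0571). The culture share of *Tgfb1* was 10.9 to 23.7% in 2D and 9.81 to 17.9% in 3D (exact p = 0.343), and that of *Tgfb3* 19.8 to 33.7% and 18.7 to 25.5% (exact p = 0.0857).

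**Figure D3:**
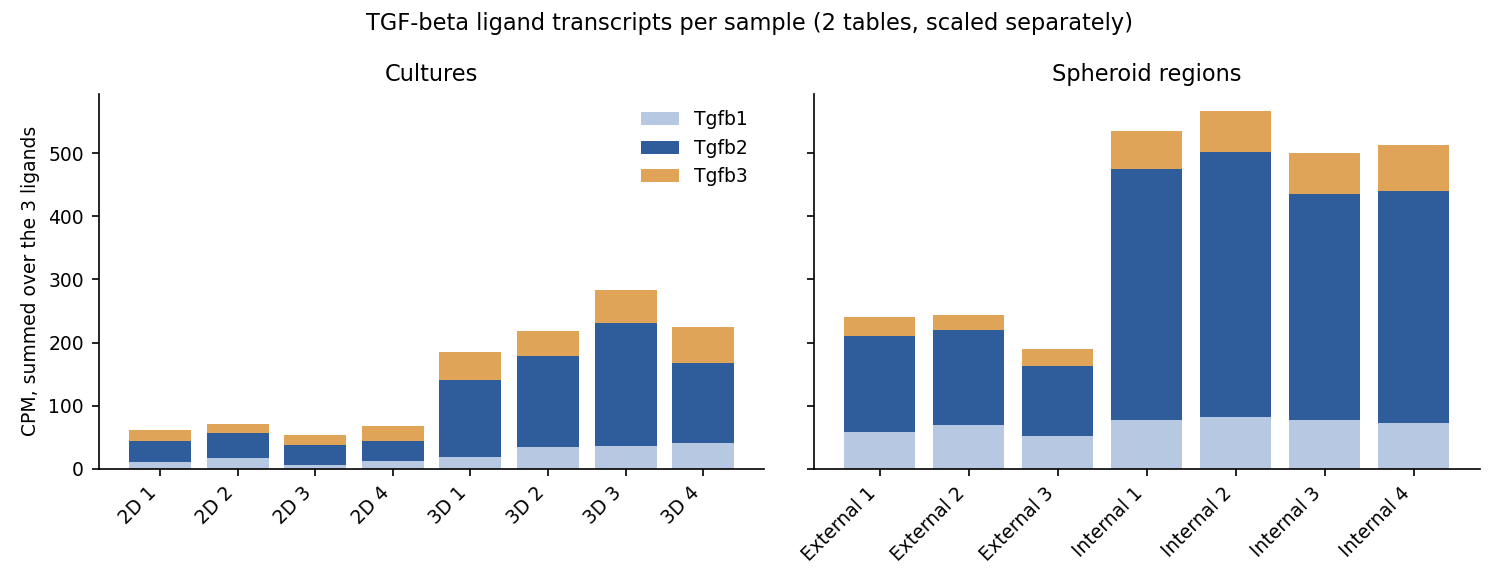
Summed CPM (vertical axis) of *Tgfb1*, *Tgfb2* and *Tgfb3* in each culture sample (left) and each region sample (right), stacked by gene. The 3D bars reach 185 to 284 CPM and the 2D bars 52.7 to 71.0, and the Internal bars reach 500 to 567 CPM and the External bars 190 to 244.

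Several marker lists differed between the groups as well, in either direction. The 6 detected genes of the lens epithelium list, which fibre cells express in part as well, summed to 854 to 1236 CPM in 2D and 1523 to 1862 CPM in 3D, where 3 rose. They summed to 960 to 1052 CPM in External and 1519 to 1795 CPM in Internal, where 5 rose, and none fell in either comparison. Of 8 fibroblast markers, 7 were in the culture table and 4 of them rose in 3D, with a summed level of 79.4 to 258 CPM in 2D and 677 to 1070 CPM in 3D. In the regions their sum was 283 to 710 CPM in External and 879 to 1122 CPM in Internal, with 2 of 6 higher and 1 lower. All 5 proliferation markers fell in both comparisons, from 1057 to 1801 CPM in 2D to 525 to 607 CPM in 3D, and from 509 to 692 CPM in External to 30.6 to 69.2 CPM in Internal. Mitochondrially encoded genes took 2.27 to 3.72% of reads in 2D, 4.02 to 6.23% in 3D, 2.53 to 3.60% in External and 5.42 to 6.98% in Internal. The part of these differences in the changes of the members was not tested.

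The rest of the pathway was followed with 9 lists, 128 genes in all, of which 90 were in the culture table and 81 in the region table. In 3D, 19 of the 90 genes rose and 1 fell (*Usp15*, which encodes a deubiquitinase), so 21.1% and 1.11%, against 9.74% and 9.25% of all genes. In Internal, 20 of the 81 rose and 9 fell, 24.7% and 11.1%, against 9.58% and 12.1% of all genes, so that the share that fell was near that of all genes. These counts were 25 and 6 with scaling by total reads and 12 and 8 with limma voom. They were 8 and 3 without a variance trend and 10 and 5 without both samples numbered 2. The median log2 fold change of the listed genes was 0.30 in the cultures and 0.34 in the regions, where that of all genes was -0.03 and 0.04.

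Of 16 genes listed for TGF-β latency and activation, 8 rose in 3D and 0 fell, with a median log2 fold change of 1.25. Over all genes, 9.74% rose and 9.25% fell. The list mixes genes for storage and release with genes whose products bind TGF-β or hold back its processing. *Dcn*, encoding decorin, a proteoglycan that binds TGF-β, had 2 to 238 reads in 2D and 1852 to 2780 reads in 3D (log2 fold change 5.86, SE 0.93, limma adjusted p = 0.00287). *Aspn*, encoding the related asporin, had 0 reads in all 2D samples and 42, 28, 36 and 35 reads in 3D, which is at least 12.8-fold higher when 3 reads per 2D library are taken as the floor. *Lrrc32*, encoding GARP, which holds latent TGF-β at the cell surface, had 0 or 1 read in 2D and 11, 17, 44 and 39 reads in 3D.

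*Ltbp4*, encoding a latent TGF-β binding protein, rose as well (129 to 524 reads against 570 to 748, log2 fold change 1.48, limma adjusted p = 0.0214), but its call was lost when the 2D replicate 4 or the 3D replicate 1, 3 or 4 was left out (adjusted p between 0.0514 and 0.0608). *Emilin1*, *Bgn*, *Itgb5* and *Ltbp3* were the other genes of this list that rose. *Dcn* is also one of the fibroblast markers given above. In the regions, 4 of 15 genes of the list rose (*Aspn*, *Emilin1*, *Thbs1* and *Itgb5*) and 3 fell (*Ltbp2*, *Ltbp1* and *Fbn1*). With 1 sample left out, 2 to 6 rose (2 without the External replicate 3) and 1 or 2 fell.

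*Emilin1*, whose product keeps the TGF-β precursor from being processed, had the smallest p of these region calls. It had 128, 121, 127 and 147 CPM in Internal and 64.6, 37.4 and 53.5 CPM in External (log2 fold change 1.36, SE 0.19, limma adjusted p = 1.25e-05). *Thbs1*, encoding thrombospondin, an activator of latent TGF-β, was higher by 1.09 on the log2 scale (limma adjusted p = 0.0185) and *Ltbp2* lower by 1.31 (adjusted p = 0.00784). The call of *Thbs1* was lost without the Internal replicate 3 or the External replicate 2 or 3, and that of *Ltbp2* without the External replicate 2. The *Aspn* value in the regions rested on 0, 1 and 18 reads in External and was lost in 4 of the 7 fits that left out 1 sample.

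Several secreted antagonists of BMPs were called in each comparison. In 3D, 3 of 10 rose, among them *Nbl1* (349 to 614 reads against 892 to 1524, log2 fold change 1.55, limma adjusted p = 0.00165) and *Grem1* (171 to 567 against 556 to 1038 reads, 1.51, adjusted p = 0.00811). In Internal, 5 of 9 rose: *Nbl1*, *Bmper*, *Twsg1*, *Crim1* and *Grem1*. *Nbl1* had 507, 417, 424 and 438 CPM in Internal and 208, 211 and 167 CPM in External (log2 fold change 1.20, SE 0.14, limma adjusted p = 1.29e-06). *Bmper* and *Twsg1*, whose products modulate BMPs in either direction, passed with limma adjusted p of 0.0132 and 0.0177 but not without the External replicate 2 (0.127 and 0.144), and only 2 antagonists rose in that fit. *Bmper* was also lost without the Internal replicate 2 (adjusted p = 0.0622), and *Twsg1* without the External replicate 3 (0.0637) and with limma voom (0.0565).

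Of the ligands that are not members, *Inhbb*, encoding an activin subunit, rose in Internal (251 to 315 reads in External and 448 to 1242 in Internal, log2 fold change 0.89, limma adjusted p = 0.00100). *Gdf15*, a stress-induced member of the family, fell from 60, 147 and 46 reads in External to 8, 100, 1 and 28 reads in Internal (log2 fold change -2.85, limma adjusted p = 0.00765, and 0.0949 without the External replicate 2). The BMP ligands in the culture table were *Bmp2*, *Bmp4* and *Bmp6*, and none was called in either comparison, though 1 rose without the 2D replicate 1. Of the receptors and co-receptors, 2 of 12 rose in 3D (*Rgma* and *Rgmb*, co-receptors for BMPs) and 3 of 12 in Internal, and with 1 sample left out 1 or 2 and 2 to 4 did, with 1 in 3D unless the 2D replicate 1 or 2 was the one left out. The largest rise in Internal was that of *Tgfbr3*, encoding betaglycan, a co-receptor that presents TGF-β2 to TGFBR2, with 61.6, 79.9, 49.7 and 47.2 CPM in Internal and 31.3, 21.3 and 17.7 CPM in External (log2 fold change 1.35, SE 0.25, limma adjusted p = 0.00034).

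No *Smad* gene was called, of 8 in the culture table and 7 in the region table. *Smad2* came nearest in the regions, with a log2 fold change of -0.71 and a limma adjusted p = 0.0553. It had an unadjusted p under 0.05 in both comparisons, the 1 *Smad* gene that did, and 1 *Smad* gene fell in Internal without the Internal replicate 1, with equal sample medians and with limma voom. Of 16 regulators inside the cell, *Usp15* fell in 3D (log2 fold change -0.65, limma adjusted p = 0.0214), and 0 fell without the 2D replicate 3 or 4 or the 3D replicate 3 or 4. No regulator rose with all samples, 3 rose without the 2D replicate 4, and 1 rose and 2 fell without the 2D replicate 2. Of 15 in the regions, *Smurf1* and *Ski* rose and *Ppm1a*, a SMAD phosphatase, fell. None rose without the Internal replicate 4 or the External replicate 1, and none fell without the Internal replicate 2 or 3 or the External replicate 2.

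**Figure D4:**
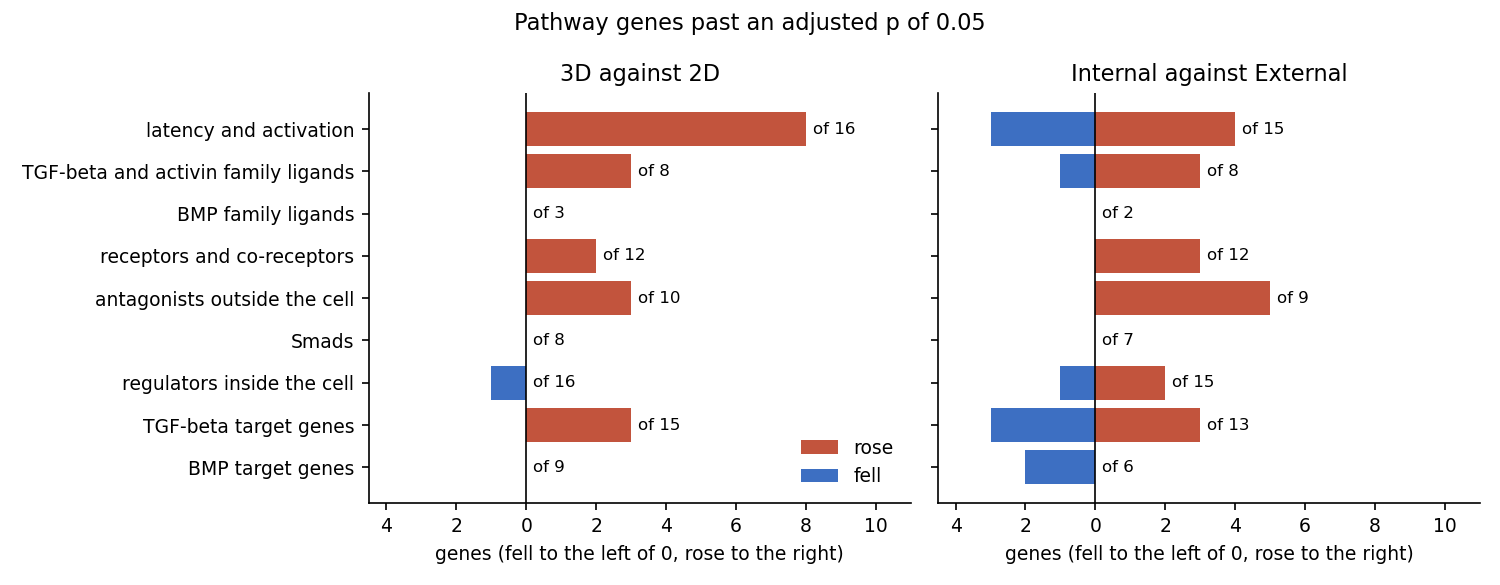
Number of genes of each list that rose (right of 0) or fell (left of 0) at an adjusted p under 0.05, in 3D against 2D and in Internal against External, with the number of listed genes in the table. Latency and activation genes have 8 of 16 higher in 3D, and no *Smad* gene passed in either comparison.

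The known target genes of the pathway did not move as a block. Of 15 TGF-β target genes in the culture table, 3 rose in 3D and 0 fell. *Tgfbi*, a matrix protein named for its induction by TGF-β, had 233 to 409 reads in 2D and 766 to 1182 in 3D (log2 fold change 1.90, SE 0.19, limma adjusted p = 0.000513). *Fn1*, encoding fibronectin, was higher by 0.94 on the log2 scale (adjusted p = 0.00256) and *Bhlhe40* by 1.52 (adjusted p = 0.0309). For *Bhlhe40*, the limma adjusted p was between 0.0563 and 0.0955 without the 2D replicate 3 or the 3D replicate 1, 3 or 4. It was 0.0574 without a variance trend. The myofibroblast gene *Acta2*, encoding smooth muscle actin, had 743, 1376, 1739 and 3892 CPM in 2D and 1077, 993, 1301 and 1381 CPM in 3D, with overlapping groups.

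In the regions, *Acta2* was the listed gene with the smallest p. It had 111, 128, 94.3 and 103 CPM in Internal against 570, 585 and 791 CPM in External (log2 fold change -2.56, SE 0.15, limma adjusted p = 5.53e-11). *Col1a1*, encoding a fibrillar collagen chain, fell too, from 91.2, 50.5 and 46.3 CPM to 16.8, 16.3, 28.4 and 20.9 CPM (log2 fold change -1.56, adjusted p = 0.000206). *Ltbp2* was the third TGF-β target that fell, whereas *Bhlhe40*, *Junb* and *Tgfbi* rose, by 1.01, 0.99 and 0.48 on the log2 scale. So 3 of 13 rose and 3 fell, and none of the first 3 passed without the Internal replicate 3 or 4.

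Of the 9 BMP target genes in the culture table, 0 rose and 0 fell with limma or with limma voom, 1 (*Id4*, lower in 3D) had an unadjusted p under 0.05, and 2 fell without the 2D replicate 2. Of the 6 in the region table, *Id1* and *Id2* fell, and *Id2* did so from 17, 20 and 18 reads in External to 0, 6, 0 and 7 reads in Internal (limma adjusted p = 0.0304, and not passed in 4 of the 7 fits that left out 1 sample). *Id3*, another *Id* gene, had 128, 150, 235 and 195 CPM in Internal and 229, 142 and 79.1 CPM in External, with no call (log2 fold change 0.33, limma adjusted p = 0.384). Without the External replicate 1, 1 BMP target rose and 0 fell.

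The target genes varied widely among the 2D samples. Of the 23 TGF-β and BMP targets in the culture table, 14 were highest in replicate 4 among the 2D samples, which is 60.9%, and over all genes this replicate was highest in 23.6%. *Pmepa1*, a feedback inhibitor of TGF-β signalling, had 70.0, 116, 121 and 750 CPM in the 2D replicates 1 to 4. *Id3* had 292, 106, 375 and 760 CPM and *Id2* 5.24, 5.05, 33.1 and 53.9 CPM. The 14 genes include the members *Smad7* and *Id1*, whose 2D replicate 4 values are given above.

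The 2D replicate 2 was the lowest of the 2D samples in 13 of these 23 genes (56.5%, against 30.8% of all genes), and the 3D replicate 2 was the lowest of the 3D samples in 11 (47.8%, against 28.8%). *Ccn2*, encoding connective tissue growth factor, had 0.68 CPM in the 2D replicate 2 against 6.91 to 45.1 CPM in the other 2D samples, and 1.23 CPM in the 3D replicate 2 against 13.6 to 19.6 CPM in the other 3D samples. *Bambi*, a pseudoreceptor that blocks TGF-β and BMP signals, showed 2.18 and 1.73 CPM in these replicates. Among the ligand genes, *Tgfb3* had these orders too, with its highest 2D level in replicate 4 and its lowest 2D and 3D levels in replicate 2, whereas *Tgfb2* and *Tgfb1* were highest in the 2D replicate 2. Without the 2D replicate 4, 5 of 15 TGF-β targets rose in 3D, and without the 2D replicate 2, 4 rose and 1 fell. Single region samples stood apart too, over the 18 targets in the region table. The External replicate 1 was the highest External sample in 11 (61.1%, against 35.3% of all genes). The External replicate 3 was the lowest in 10 (55.6%, against 34.4%). The Internal replicate 3 was the highest Internal sample in 9 (50%, against 26.5%). These replicates were singled out after their values had been seen, and no cause was tested.

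**Figure D5:**
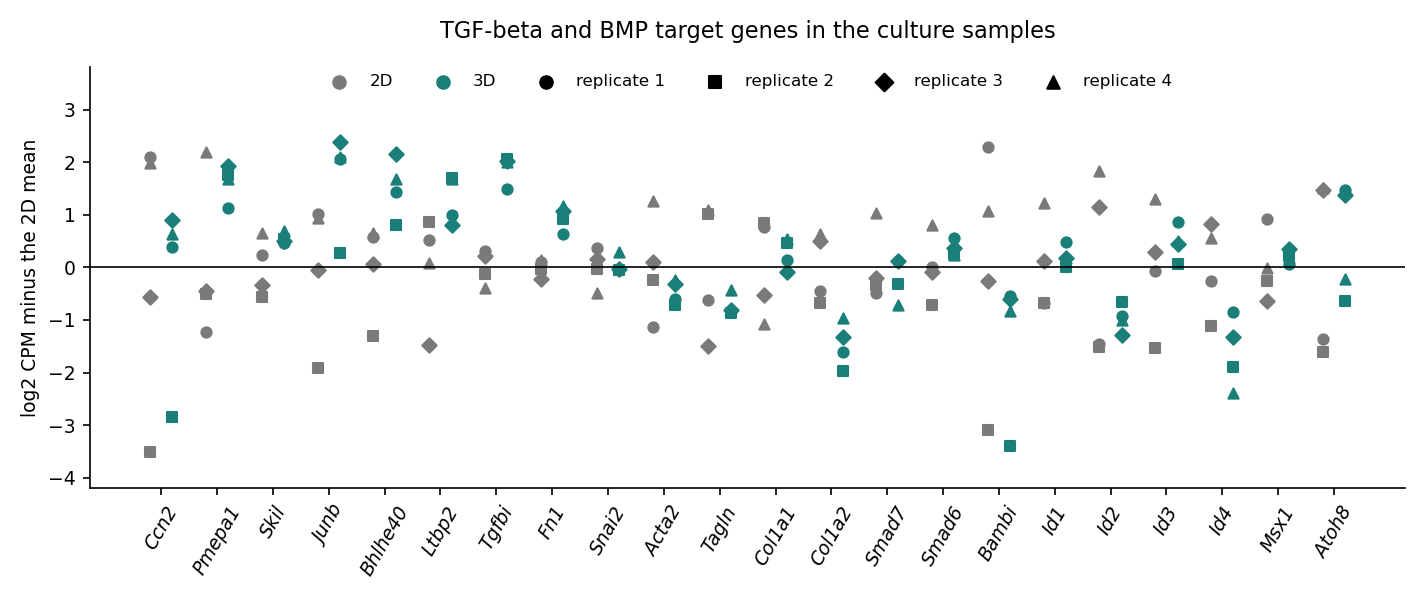
Level of 22 of the 23 TGF-β and BMP target genes in each culture sample as log2 CPM minus the mean of the 2D samples (vertical axis), with 2D in grey, 3D in green and the marker shape giving the replicate. The 2D replicate 4 (grey triangles) is the highest 2D sample in 13 of these genes, and the squares of replicate 2 lie far below the others for *Ccn2* and *Bambi*.

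The genes whose levels followed those of *Id1* and *Smad7* most closely were listed by Pearson's r over samples, as a description, over genes that averaged 4 log2 CPM or more. Over the 8 culture samples, *Magoh*, *Flrt2*, *Armc6*, *Morrbid* and *Nuak1* followed *Id1* (r from 0.911 to 0.917) and *Zbtb8b*, *Slc4a2*, *Tmem50b*, *Ilk* and *Pdia4* followed *Smad7* (r from 0.878 to 0.936), out of 7224 genes. Over the 7 region samples, *Traf7*, *Cldn12*, *Cops7b*, *Rin1* and *Tnk2* followed *Id1* (r from 0.977 to 0.993) and *Senp5*, *Agtrap*, *Ufsp2*, *Tmem65* and *Drap1* followed *Smad7* (r from 0.945 to 0.992), out of 7209 genes. The samples share groups, depth and scaling. No gene was in both lists of the same member.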

How the data were processed

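RNA was measured by 3′ end sequencing (QuantSeq) in 15 samples of 21EM15 cells. Per the labels and the study's methods, the authors trimmed adaptors and poly(A), kept sense reads over 20 nucleotides, aligned them with STAR 2.7.8a to GRCm38.p6, assigned those that mapped to 1 place to genes with featureCounts 1.6.0, and kept genes over 0.2 CPM. The authors deposited a log2 CPM value for each gene and sample, computed with a prior count and scaled within each of 2 tables. The deposited fold changes, mean levels, p-values and F score of the authors' own comparisons were not used, and 0 columns of per-sample values were left out.

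Whole reads were recovered from the spacing of the log2 values (100.0% of values within 0.02 of a whole read, prior of 2.0 reads on average), which gave the reads and CPM printed. Reads that are PCR copies cannot be told apart, so limits from reads cover counting error only.

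The log2 CPM values were compared with limma 3.58.1 (R 4.3.3), with a variance trend and no covariates, two-sided, within each table, with Benjamini-Hochberg adjustment over all its genes. "Rose" and "fell" mean an adjusted p under 0.05. A DEG also has an absolute log2 fold change over 1. Fold changes include the prior count and understate those of low genes. Single sums and shares were compared with exact permutation tests (scipy 1.17.1, with Python 3.11.15, numpy 2.4.6, pandas 2.3.3 and matplotlib 3.10.9). The scripts were checked on simulated data.

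The members and lists were chosen with earlier results of these data known. Named are all members, per list and direction up to 4 DEGs with the largest change, and the 5 genes most like *Id1* and *Smad7*. Other genes were named after their values were seen, and some genes that enter the counts are not reported by name here. The labels do not say whether samples with the same number pair, and the main fits do not pair them. The correlation of their deviations was 0.227, 0.503, 0.066 and 0.005 in the cultures and -0.044, -0.065 and -0.063 in the regions. Culture samples with different numbers had -0.33 to 0.188, so these values do not settle pairing in the cultures. Gene positions are from GENCODE vM21, which held 11676 and 11298 of the IDs of the tables.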

Additional observations from a re-analysis of the deposited data

Results flagged for a closer look

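*Lrrc32* was set apart by 1 of the 2D samples. Replicate 2 had 1 read and the other 3 had 0 reads, so that the gap to the nearest sample, divided by the range of the group, was 1. A single read among samples with 0 reads always gives this value. *Tgfbi* in 3D was set apart by replicate 1, with 766 reads where replicates 2 to 4 had 1091 to 1182 (gap over range 0.906). In all, 57 groups of 4 samples were examined, and chance alone marks about 1 in 20 groups, a rate that does not hold for groups near 0 reads.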

How the results depend on the processing

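The rises of *Tgfb2* and *Tgfb3* passed in every alternative tried in both comparisons, with log2 fold changes between 1.93 and 2.16 and between 1.36 and 1.58 in 3D and lowest values of 1.35 and 1.21 in Internal. *Tgfb1* in 3D failed only at an adjusted p under 0.01, so the 3 members that rose became 2. No value that passed changed direction among the members and the genes named by size of change, the genes examined for this. In the cultures, the pathway genes that fell (1) became 3 with a replicate block, 4 without both samples numbered 2, 2 without a variance trend, 0 at an adjusted p under 0.01 and 0 to 5 with 1 sample left out. DEGs higher in 3D (644) and lower (334) became 341 and 176 at an adjusted p under 0.01, 1137 and 1080 without a fold threshold, and 414 to 794 and 213 to 504 with 1 sample left out, the lowest without the 3D replicate 3 and the highest without the 2D replicate 2. In the regions, the pathway genes that rose (20) became 10 without both samples numbered 2, 8 without a trend, 12 with limma voom, 9 at an adjusted p under 0.01 and 13 to 22 with 1 sample left out (13 without the External replicate 2 or 3). Those that fell (9) became 5, 3, 8 and 5 under the first 4 of these and 4 to 8 with 1 sample left out (5 and 4 without the External replicates 1 and 2). The members that fell (*Id1*) became 0 without both samples numbered 2, without a trend and without the External replicate 1, so 0 to 1 with 1 sample left out. DEGs higher and lower in Internal were 539 and 638, 1083 and 1370 without a fold threshold, 469 and 735 with equal sample medians, 696 and 534 with scaling by total reads (which moved the median of all genes to 0.15) and 370 and 664 with limma voom. Among the named region genes, the calls of *Aspn*, *Ltbp2*, *Gdf15*, *Bmper*, *Twsg1* and *Bhlhe40* were also lost without a trend (adjusted p between 0.0685 and 0.119), and those of *Aspn*, *Thbs1*, *Twsg1*, *Bhlhe40* and *Id2* with limma voom (between 0.0565 and 0.153). The cause of these shifts was not tested.

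The replicate block, by numbers that the labels do not say pair the samples, gave 722 and 387 DEGs and 27 pathway genes that rose in the cultures, and 429 and 574 DEGs, 14 pathway genes that rose and 6 that fell in the regions. In the cultures, TGF-β targets that rose went from 3 to 6 and BMP targets that fell from 0 to 2. The block left the member counts at 3 and 0, and at 2 and 1. In the regions the calls of *Bhlhe40* and *Id2* were lost (adjusted p = 0.109 and 0.0525). In the cultures, 2 of the 4 same-number correlations exceeded 0.1. Leaving out 1 culture sample, the exact test of the summed ligand level cannot go below 0.0571, the value it gave each time, with a difference of 146 to 179 CPM. Depth limits *Bmp4*, *Aspn*, *Lrrc32* and *Id2*, whose groups held 0 to 43 reads in some samples.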
